A study of Mus musculus with 12 samples.

Results

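The 10 genes described here code for proteins of the granular layer and of the cornified envelope of the epidermis: Flg, Flg2, Hrnr, Lor, Cdsn, Casp14, Asprv1, Spink5, Hal and Nccrp1. They were chosen by name, and all 10 were present among the 22416 genes of every count file. Each count is a sequenced ribosome footprint, a stretch of mRNA that a translating ribosome shields from nuclease, assigned to a gene in a well that received 1 sorted epidermal cell. The cells came from the back skin of female C57Bl/6 mice, young (56 to 60 days) or old (22 to 26 months by the label). All animals, at both ages, received cycloheximide, which stalls ribosomes, by tail vein before death, and live cells freed with trypsin were sorted. The old animals are called P662, P722 and P758 and the young ones P57, P59 and P60 after their postnatal days, with plates of 1 age and day taken as 1 animal (n = 3 animals per age, 10 plates). Of 2 further plates, 1 held P758 cells treated with different ribonucleases and 1 held cells without Sca-1, young and old mixed, and both are described apart.

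In the granular layer, the last living layer of the epidermis, keratinocytes fill with keratohyalin granules and then flatten into dead corneocytes. Profilaggrin, the product of Flg, bundles keratin filaments after it is processed and is then broken down to amino acids that hold water, while loricrin (Lor) is cross-linked by transglutaminases under the plasma membrane as the bulk of the cornified envelope. Corneodesmosin (Cdsn) holds corneocytes together, caspase-14 (Casp14) and the skin aspartic protease SASPase (Asprv1) act in filaggrin processing and breakdown, LEKTI (Spink5) inhibits the kallikreins that cut corneodesmosomes, and histidase (Hal) turns histidine from filaggrin into urocanic acid. Flg2 and Hrnr code for proteins of the same S100 fused-type family as profilaggrin, and Nccrp1 codes for an F-box-like protein.

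In RefSeq's annotation of GRCm38.p6 all 10 genes had an entry, each as protein coding. Lor, Flg2, Flg and Hrnr lie on chromosome 3 in the epidermal differentiation complex, the cluster of cornified envelope genes. Flg2 (chr3:93197273-93221377), Flg (chr3:93273546-93293689) and Hrnr (chr3:93319749-93333572) follow one another within 136 kb on the plus strand, and Lor (chr3:92080271-92083142) lies 1114 kb before Flg2 on the minus strand. Since the counts of Flg, Flg2 and Lor fell mostly in the same wells, the 250 bases before their annotated starts are shown with those of Hrnr, 5′ to 3′ on the strand of the gene, from RefSeq's promoter table of the same build. Capitals mark the AP-1 letters TGANTCA and the TATA box letters TATAAA on either strand, and no match of one overlapped a match of another. The windows are chr3:93273296-93273545 for Flg, chr3:93197023-93197272 for Flg2, chr3:93319499-93319748 for Hrnr and chr3:92083143-92083392 for Lor.
Flg: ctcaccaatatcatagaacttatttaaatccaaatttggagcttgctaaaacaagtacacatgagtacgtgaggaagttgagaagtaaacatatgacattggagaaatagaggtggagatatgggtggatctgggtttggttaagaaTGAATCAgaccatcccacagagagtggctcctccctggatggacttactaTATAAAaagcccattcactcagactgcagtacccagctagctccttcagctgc
Flg2: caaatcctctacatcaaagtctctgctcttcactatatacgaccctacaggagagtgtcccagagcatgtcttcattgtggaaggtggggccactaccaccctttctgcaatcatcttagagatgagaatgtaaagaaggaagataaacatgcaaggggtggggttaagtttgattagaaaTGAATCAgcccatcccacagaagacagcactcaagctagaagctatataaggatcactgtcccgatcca
Hrnr: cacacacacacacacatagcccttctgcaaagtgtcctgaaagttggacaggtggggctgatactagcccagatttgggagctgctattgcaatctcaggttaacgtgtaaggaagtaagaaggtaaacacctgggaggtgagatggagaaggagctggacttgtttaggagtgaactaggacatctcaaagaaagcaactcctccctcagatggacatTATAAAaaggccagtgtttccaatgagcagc
Lor: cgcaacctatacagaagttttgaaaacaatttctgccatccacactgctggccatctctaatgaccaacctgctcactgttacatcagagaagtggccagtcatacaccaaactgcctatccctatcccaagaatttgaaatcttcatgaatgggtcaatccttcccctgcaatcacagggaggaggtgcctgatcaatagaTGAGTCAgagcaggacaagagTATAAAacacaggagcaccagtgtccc

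The AP-1 letters stood in the windows of Flg, Flg2 and Lor, at base -48 to -42 from the start in Lor, and in that of Hal among the 8 genes with a promoter entry. Of all 32851 promoters in the table, 6.75% held them within the same 250 bases. The TATA box letters stood in the windows of Flg, Hrnr, Lor and Hal, against 12.4% of all promoters. The letters AACNGGTT, bound by grainyhead-like factors, stood in none of the 8, against 1.79% of all promoters, and the letters GGGTGTGG, bound by Krüppel-like factors, stood in that of Casp14, against 3.2%. These matches describe the letters of the windows, and binding was not measured. Asprv1 (chr6:86628174-86629710), Casp14 (chr10:78711995-78718347), Hal (chr10:93488768-93516761), Cdsn (chr17:35543101-35557180), Nccrp1 (chr7:28543592-28547748) and Spink5 (chromosome 18) lie elsewhere.

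Depth differed widely between the animals, and this bears on every value below. Of 1924 wells on the 10 plates, 1906 passed a minimum of 100 counts. Summed over wells, the depth was 2384294 counts in P60 (981 wells) and 896688 in P758 (627 wells), and 70549 in P662 (199 wells), 12886 in P722 (38 wells), 12371 in P59 (48 wells) and 5230 in P57 (13 wells). In CPM, counts per 1000000 counts of all genes, a single count was worth 0.419 in P60, 1.12 in P758, 14.2 in P662, 77.6 in P722, 80.8 in P59 and 191 in P57. Intervals are exact (Clopper-Pearson for shares, Poisson for counts) at 95% and cover counting error only, and the level that a count of 0 allows is the upper bound of the same interval. Counts were not set per length, so levels of different genes are not compared. In sums over wells, fewer cells of a type and fewer footprints per cell cannot be told apart.

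Few wells carried these genes. Of the 1906 wells, 351 (18.4%, interval 16.7 to 20.2) had a count of at least 1 of them and 92 (4.83%, 3.91 to 5.89) had counts of 2 or more. Together they took 3359 of 3382018 counts, or 0.0993%. By number, 259 wells carried 1 of the genes, 66 carried 2, 14 carried 3, 6 carried 4, 2 carried 5, 2 carried 6, 1 carried 9 and 1 carried all 10. Spink5 was found in 212 wells, Casp14 in 81, Asprv1 and Hal in 57 each, Lor in 43, Flg2 in 14, Flg and Cdsn in 10 each, and Hrnr and Nccrp1 in 7 each. Most of these detections were thin: 270 of the 325 wells with 1 or 2 of the genes (83.1%) held only 1 or 2 such counts. Detection followed depth. Any of the genes was found in 7.48% of wells with 100 to 200 counts and in 53.5% of wells with 5000 counts or more. After each well was thinned to 500 counts, which leaves out shallower wells, the share was 9.78%.

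A pair of wells of the old animal P758 stood apart from all others and were singled out after their values were seen. They made up 0.105% of wells and 1.01% of counts, and they held 62.6% of all counts of the 10 genes, or 80.6% with Spink5 left out. One, on plate old 4, was the deepest well of its plate (26814 counts, plate median 964) and carried all 10 genes with 1283 counts, 4.78% (4.53 to 5.05) of its total. Its counts were 418 of Spink5, 264 of Lor, 170 of Flg, 155 of Hal, 77 of Flg2, 73 of Cdsn, 59 of Nccrp1, 32 of Asprv1, 19 of Casp14 and 16 of Hrnr. It also held the suprabasal keratins Krt10 (2908 counts), Krt77 (3618) and Krt1 (144) with 3 counts of the basal pair, 2 of Krt5 and 1 of Krt14, and none of the follicle keratins Krt79 and Krt17. The other, on plate old 2 (7328 counts), carried 9 of the genes with 821 counts, 11.2% (10.5 to 11.9) of its total: 387 of Flg, 114 of Hal, 97 of Casp14, 71 of Lor, 70 of Flg2, 29 of Cdsn, 25 of Asprv1, 20 of Spink5, 8 of Nccrp1 and 0 of Hrnr. Its keratins differed: 60 counts of Krt10 and 53 of Krt77, none of Krt1, Krt5 or Krt14, and 136 of Krt79 and 105 of Krt17, keratins of the upper hair follicle. Of 8 upper hair follicle markers looked at it carried 3, these 2 keratins and Defb1, which the old 4 well also held. Defb6, Klk10, Lrig1, Fst and Cd200 were not found in it. So the well richest in Flg had little suprabasal keratin, and the well richest in Lor and Spink5 had much.

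**Figure D1:**
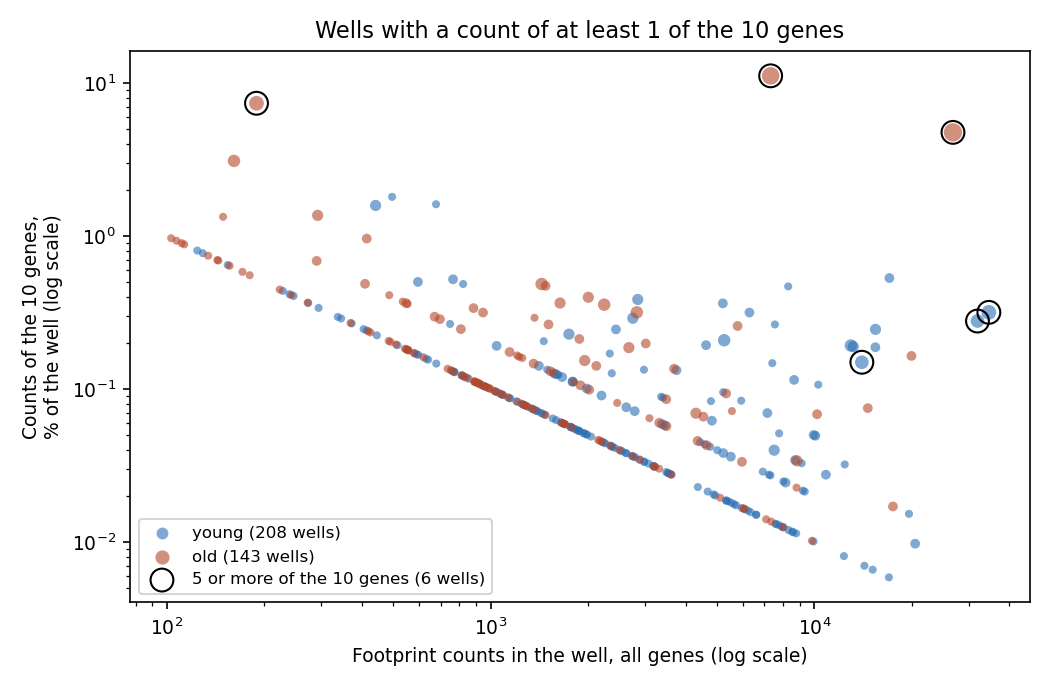
Footprint counts of all genes in a well (x axis, log scale) against the percent of them that fell on the 10 genes (y axis, log scale) in the 351 wells with at least 1 such count; larger points carry more of the genes. The old 4 and old 2 wells lie at 4.78% and 11.2% among deep wells, the old 7 well at 7.41% with 189 counts, and the deep young wells with 5 or 6 genes at 0.15% to 0.318%; the lower edge is the line of a single count.

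One more old well, of P662 on plate old 7, was shallow (189 counts) and carried 6 of the genes: 4 counts each of Flg2 and Spink5, 3 of Lor and 1 each of Hrnr, Cdsn and Hal, together 7.41% (4.11 to 12.1) of its counts. No young well with 5 or more of the genes gave them over 1% of its counts, as these 3 did. Among young wells with fewer of the genes, 1 on plate young 9 gave 1.62% of its 678 counts to Lor alone. The young wells with 5 or 6 of the genes were 2 on plate young 1 and 1 on young 3, all from P60, and were the first, the second and the fourth deepest of their plates (34615, 31921 and 14022 counts). They gave 0.318%, 0.279% and 0.15% of their counts to the genes, mostly Spink5 (79, 74 and 12 counts), and had 0 counts of Flg, Flg2, Hrnr and Cdsn. Their Krt10 and Krt77 took shares of 9.44% to 12.0% and 7.42% to 12.0%, beside 10.8% and 13.5% in the old 4 well.

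**Figure D2:**
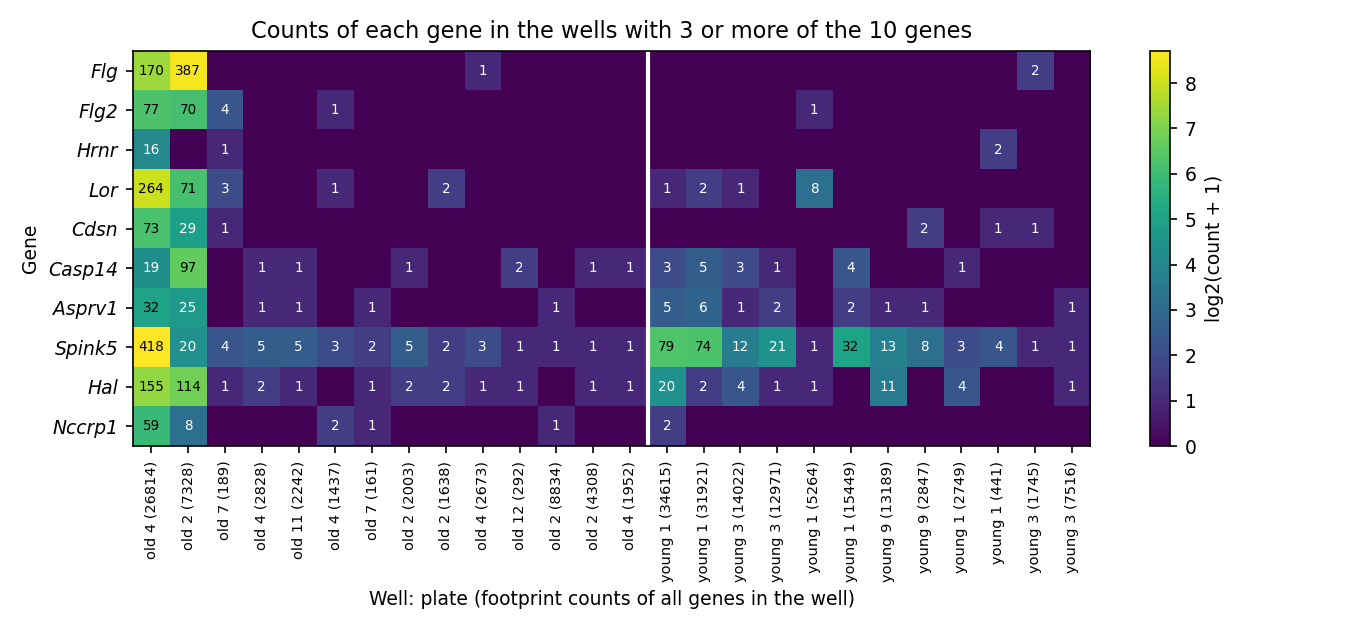
Counts of each of the 10 genes (rows, colour as log2 of count + 1, number printed where above 0) in the 26 wells with 3 or more of them, 14 old to the left of the white line and 12 young to its right, each labelled with its plate and total. The first pair of columns holds nearly all counts of Flg, Flg2, Lor, Cdsn and Nccrp1, while Spink5 is present in all 26 wells and Hal in 20.

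Most counts of the filaggrin family and of Lor, the matrix and envelope proteins, lay in the 2 wells of P758. For Flg, 557 of 566 counts (98.4%) lay in the 2 wells. P758 had 563 counts (628 CPM) in 8 wells and P60 had 3 counts (1.26 CPM) in 2 wells, and P662, P722, P57 and P59 had 0, which allows up to 52.3, 286, 705 and 298 CPM. Flg2 had 89.1% of its 165 counts in the 2 wells, with 157 counts (175 CPM) in P758, 4 (56.7 CPM) in P662, all in the old 7 well, and 4 (1.68 CPM) in P60, each in a well of its own, and with 0 in P722, P57 and P59. Hrnr had 16 of its 23 counts in the old 4 well alone (17.8 CPM in P758), with 1 further count (14.2 CPM) in P662, 6 (2.52 CPM) in 5 wells of P60 and 0 in the other animals. Flg2 and Hrnr thus showed up outside P758 only as 1 to 4 counts a well.

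Lor was carried more widely than the filaggrin family. It had 335 of 400 counts (83.8%) in the 2 wells and the other 65 in 41 wells. P758 had 349 counts (389 CPM) in 13 wells, P60 had 47 (19.7 CPM, interval 14.5 to 26.2) in 28 wells and P662 had 4 (56.7 CPM) in 2 wells, while P722, P57 and P59 had 0. Outside the 2 wells its highest well, on young 9, held 11 Lor counts among 678 (1.62%) with no other of the genes, and with 12 counts of Krt79 and 11 of Krt17. Of the 43 wells with Lor, 24 had basal keratins and 14 suprabasal ones, by the classes given below. Basal wells were the larger class, and Lor was found in 2.21% of them (interval 1.42 to 3.27). It was found in 3.72% (2.05 to 6.17) of suprabasal wells, and the intervals overlap.

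Among the other 6 genes the share of counts that lay in the 2 wells ran from 91.9% for Cdsn down to 33.9% for Spink5. Cdsn had 102 of 111 counts (91.9%) in the 2 wells, the whole of its signal in P758 (114 CPM), and 3 counts (42.5 CPM) in P662 and 6 (2.52 CPM) in P60 besides, with 0 in P722, P57 and P59. Nccrp1 had 67 of 74 counts (90.5%) there, 78.1 CPM in P758, 14.2 in P662 from 1 count, 1.26 in P60 and 0 in the others, and all 7 wells with Nccrp1 also held Spink5. Hal had 269 of 366 counts (73.5%) in the 2 wells and 97 in 55 others. For Casp14 the share was 53.7% of 216 counts, for Asprv1 39.0% of 146 and for Spink5 33.9% of 1292. Outside the 2 wells Spink5 made up 68.0% of the counts of all 10.

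Spink5 was the member found in every animal. It had 583 counts (650 CPM, interval 598 to 705) in 63 wells of P758, 36 (510 CPM, 357 to 706) in 20 wells of P662 and 2 (155 CPM, 18.8 to 561) in P722. Among young animals it had 667 (280 CPM, 259 to 302) in 123 wells of P60, 3 (243 CPM) in P59 and 1 (191 CPM) in P57. With the 2 wells set aside P758 had 145 counts and 168 CPM, below P60. The place of P758 thus rested on those wells. P662 lay above P60 beyond the counting intervals, and the wide intervals of P722, P57 and P59 spanned the values of both. Spink5 too was uneven: its highest well outside the 2, on young 1, held 89 counts with 1198 of Krt79 and 808 of Krt17, and another young 1 well with basal keratins held 39.

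Some counts outside the 2 wells lay in wells that carry the same cell index, the short tag that marks a well within its plate, on another plate. On the 10 plates 383 of the 384 indices occurred on 2 or more plates. The 2 wells shared their index with 9 kept wells of other plates, which held 0.656% of all counts outside the 2. These 9 held 4 of the 9 remaining Flg counts, among them all 3 young ones (1 count on young 1 and 2 on young 3), with 1 of 9 Cdsn counts, 3 of 65 Lor counts, 4 of 97 Hal counts and 8 of 854 Spink5 counts. For Flg2, Hrnr, Casp14, Asprv1 and Nccrp1 they held 0. With these wells set aside, young animals had 0 Flg counts. The part of the shared index in these counts was not tested.

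Co-detection was read beside depth, since for each of the genes but Hrnr the wells with a count were deeper in the median than the wells without. For Cdsn that order rested on the 2 wells: its wells had a median of 1170.5 counts against 894.5 in the others, and 518.5 against 894.5 without the 2. Of the wells with Cdsn 9 of 10 also carried another of the genes, of those with Nccrp1 7 of 7, with Hal 37 of 57 (64.9%), with Flg2 9 of 14, with Asprv1 36 of 57 (63.2%), with Flg 5 of 10, with Hrnr 3 of 7, with Casp14 38 of 81 (46.9%), with Lor 17 of 43 (39.5%) and with Spink5 78 of 212 (36.8%). In wells without the gene named, another one was found in 8.21% (for Spink5) to 18.1% (for Hrnr and Nccrp1). Hal was found in 26.3% of wells with Asprv1 and in 2.27% of wells without it, at median depths of 4358 and 876 counts. Spink5 was found in 50.9% of wells with Asprv1 and in 9.9% of the others, and in 40.7% of wells with Casp14 against 9.81%. At full depth, leaving out the 2 wells moved these pairs little, to 23.6% for Asprv1 with Hal, 49.1% for Asprv1 with Spink5 and 39.2% for Casp14 with Spink5. At 500 counts per well, where depth is equal, another gene was found in 11.5% of wells with Spink5 and in 4.16% of wells without it, in 23.5% of the 17 wells with Hal against 8.61%, and in 31.8% of the 22 wells with Casp14 against 8.26%. The 2 wells were among these: without them the shares were 9.21% of 76 wells for Spink5, 13.3% of 15 wells for Hal, where 2 wells held another gene, and 28.6% of 21 wells for Casp14. For the rest, another gene was found in 4 of 11 wells with Asprv1, 1 of 8 with Lor and 1 of 1 with Cdsn. It was found in 0 of 4 with Flg2, 0 of 2 with Hrnr and 0 of 1 with Flg, and Nccrp1 was in 0 wells. Hal was found in 2 of 13 wells with Asprv1 at 500 counts, and these were the 2 wells.

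Whether the genes are translated in differentiated cells was asked by splitting the wells on keratins that are no members. A well with at least 5 counts of Krt5, Krt14, Krt1 and Krt10 was called basal where Krt1 and Krt10 made up at most 0.2 of them (1086 wells) and suprabasal where they made up at least 0.8 (376 wells), with 168 wells between and 276 wells with too few such counts. Any of the genes was found in 10.2% (8.48 to 12.2) of basal wells, 23.2% of those between and 46.8% (41.7 to 52.0) of suprabasal wells, at median depths of 1086.5, 868 and 1029 counts. Thinned to 500 counts the shares were 3.33% of 872, 12.1% of 116 and 28.5% (23.3 to 34.1) of 281 wells. Wells with 2 or more T cell markers, a type that should lack the genes, carried one in 2 of 48 (4.17%, median depth 649.5 counts), and in 0 of 29 after thinning, which allows up to 11.9%. Other such types were less clean. Wells with 2 or more Langerhans cell markers carried one in 11 of 53 (20.8%, 10.8 to 34.1, median depth 1443 counts). For melanocyte markers it was 1 of 5 wells and for fibroblast markers 1 of 10. The Langerhans list holds Epcam, which the old 4 and old 2 wells also carried, with 17 and 28 counts. Of wells with sebaceous markers 43 of 85 (50.6%) carried one, at a median depth of 5494 counts. The shares were 26.4% for proliferating (2784 counts), 24.7% for upper hair follicle (1555 counts) and 20.6% for outer bulge markers (1726.5 counts). A well could carry markers of more than 1 type. Both deep animals showed the order of the keratin classes, with 6.25% of basal and 49.7% of suprabasal wells in P758 and 13.6% and 54.4% in P60.

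Spink5, Hal, Casp14 and Asprv1 were called higher in suprabasal wells with and without the 2 wells, and Flg, Flg2, Hrnr, Cdsn and Nccrp1 with them but not without, in the test over all animals given below. The animals did not weigh alike in it. With the 2 wells in, the suprabasal wells held 2320 counts of the 10 genes in P758, 667 in P60, 37 in P662, 1 in P57 and 0 in P722 and P59. The last 3 animals thus added next to nothing to these calls. Spink5 had 1300 CPM in suprabasal and 48.0 CPM (39.2 to 58.2) in basal wells, and 818 CPM (757 to 882) in suprabasal wells without the 2. Hal had 409, 2.80 and 98.5 CPM in the same order, Casp14 217, 10.7 and 85.2 CPM, and Asprv1 128, 7.93 and 64.5 CPM. For each of these 4 the suprabasal interval without the 2 wells lay above the basal one. Lor had 422 CPM in suprabasal wells, 14.9 (10.2 to 21.1) in basal wells and 31.6 (20.7 to 46.3) in suprabasal wells without the 2, an interval that just overlaps the basal one. Of the 26 suprabasal Lor counts left without the 2, 11 lay in the young 9 well named above, and without that well too Lor had 18.3 CPM (10.2 to 30.1), an interval that overlaps the basal one more widely. Flg had 655 CPM in suprabasal wells, 0.933 (0.113 to 3.37) in basal wells and 4.87 (1.33 to 12.5) in suprabasal wells without the 2. Nccrp1 had 85.3 CPM in suprabasal wells, 0 in basal wells, which allows up to 1.72 CPM, and 7.30 CPM (2.68 to 15.9, 6 counts in 4 wells) in suprabasal wells without the 2, an interval above the basal bound. Hrnr then had 0 of 821972 suprabasal counts. Of its 7 remaining counts 3 were basal and 4 lay in the 276 wells with too few keratin counts. Its level in those was 33.3 CPM (9.06 to 85.2), against 1.40 CPM (0.288 to 4.09) in basal wells. Cdsn had 6 of its 9 counts outside the 2 wells in that same class (49.9 CPM, 18.3 to 109), whose median depth was 231.5 counts. In P60, which held most suprabasal depth, Flg, Flg2, Hrnr and Cdsn were at 0 in suprabasal wells, which allows up to 7.39 CPM, with 1, 4, 3 and 1 counts in basal ones.

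**Figure D3:**
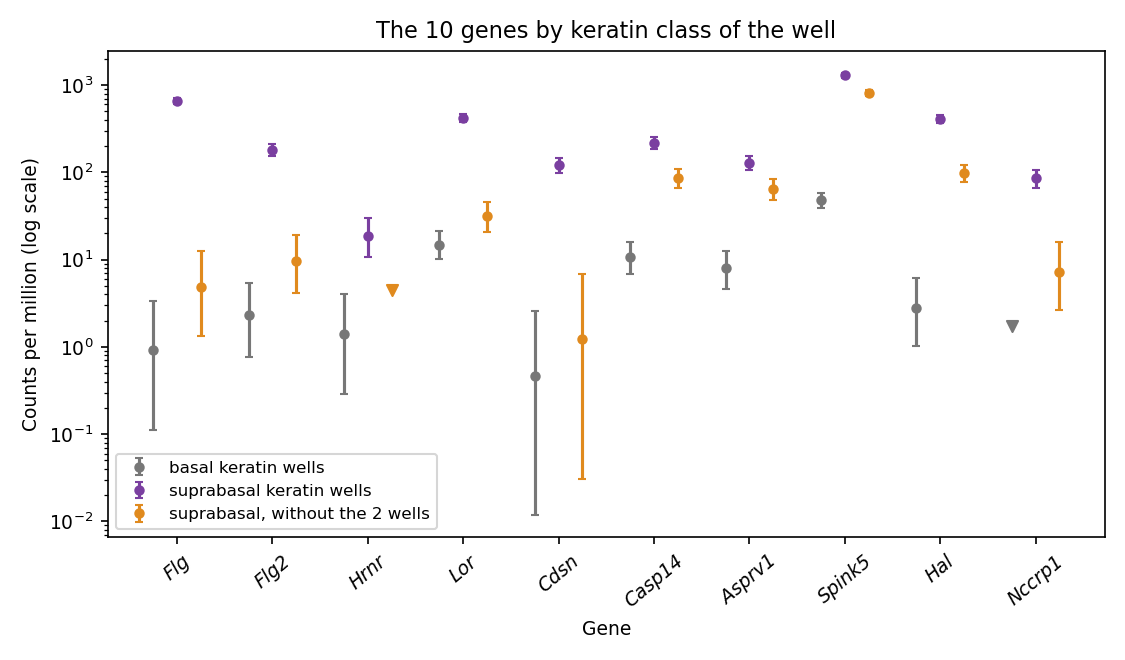
CPM (y axis, log scale) of each gene summed over the basal wells (grey), the suprabasal wells (purple) and the suprabasal wells without the 2 wells of P758 (orange), with exact 95% Poisson intervals of counting error and, where the count is 0, a triangle at the upper bound. Spink5, Hal, Casp14 and Asprv1 keep a gap to the grey points without the 2 wells, from 818 against 48.0 CPM for Spink5 to 64.5 against 7.93 CPM for Asprv1, while for Nccrp1 6 counts are left (7.30 CPM against 0, with a bound of 1.72) and for Flg, Flg2, Lor, Cdsn and Hrnr the intervals overlap.

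The test compared sums per animal and class, with the animal as a block and the 4 keratins left out (edgeR's quasi-likelihood test, Benjamini-Hochberg adjustment over all genes tested). Its filter on low counts, set by the smallest animals, passed 83 genes, of which 68 (81.9%) were called, and none of the 10 was among those tested. Without the filter 15419 genes were tested and 900 (5.84%) were called higher in suprabasal wells. All 10 were then tested and 9 were called higher, all but Lor. The SE given here and below is the log2 difference, without its sign, divided by the square root of the test's F statistic. It is no separate measure of error and can be too small where counts are few, as for Hal with 6 counts in basal wells. Hal had a log2 difference of 6.61 (SE 0.385, adjusted p = 5.58e-63), Spink5 5.10 (SE 0.276, adjusted p = 6.05e-73), Casp14 4.02 (SE 0.335, adjusted p = 5.45e-31) and Asprv1 3.92 (SE 0.390, adjusted p = 7.27e-22). The median log2 difference was 5.23 over the 10 and -0.21 over all genes tested. Without the 2 wells 861 of 15408 genes (5.59%) were called higher and 4 of the 10, Spink5 at 4.50 (SE 0.264), Hal at 5.15 (SE 0.495), Asprv1 at 3.22 (SE 0.484) and Casp14 at 3.01 (SE 0.403), with a median of 2.31 over the 10 and -0.20 over all genes. Lor then had 1.28 (SE 0.527, adjusted p = 0.101), Flg2 1.61 (adjusted p = 0.616), Flg 1.58 (adjusted p = 0.834), Nccrp1 4.02 (adjusted p = 0.141), Cdsn 0.45 (adjusted p = 0.948) and Hrnr -1.64 (adjusted p = 0.878). On the 5 plates of P758 and P60 alone, with the plate as a block, 798 of 4227 genes (18.9%) were called higher and Spink5, the only one of the 10 to pass the filter there, had 4.81 (SE 0.431, adjusted p = 0.000235), or 4.35 without the 2 wells. The plates of an animal are technical replicates, so p values and calls on these 5 plates reflect spread between plates and not between animals. Without the filter on these plates 996 of 15381 genes (6.48%) and 9 of the 10 were called higher, and without the 2 wells 957 of 15370 (6.23%) and 5 of the 10, the same 4 genes and Lor (1.29, SE 0.462, adjusted p = 0.0357). The call of Lor rested on the young 9 well, without which Lor had 0.49 (SE 0.541, adjusted p = 0.743) and 4 of the 10 were called.

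Wells with hair follicle keratins carried the genes as well, and they were looked at after the old 2 well was seen. In 103 wells Krt79 and Krt17 made up at least 1% of the counts, and 15 of the 92 wells with 2 or more of the genes were among them, as were 69 (4.44%) of the 1555 wells with none. Without the 2 wells these follicle wells had 1090 CPM of Spink5 (929 to 1270), 131 CPM of Lor (80.1 to 203), 65.6 CPM of Casp14, 52.5 of Asprv1 and 19.7 of Hal, and 0 Flg counts, which allows up to 24.2 CPM. Of the 166 Spink5 counts behind that level 89 lay in the young 1 well named above, and without it the follicle wells had 569 CPM (449 to 711). That well is also among the suprabasal wells, whose 672 Spink5 counts without the 2 wells fall to 583 without it. The Spink5 levels of the follicle and suprabasal wells are therefore not ranked here. Of the 20 Lor counts in these wells, 11 lay in the young 9 well. Beside 98.5 CPM (78.3 to 122) of Hal in the suprabasal wells without the 2, the follicle wells had 19.7 CPM (4.06 to 57.5). Some wells belong to both sets, and the difference was not tested across animals. T cell, melanocyte and fibroblast markers were at 0 in the old 4 and old 7 wells, and the old 2 well had 1 count of Mitf among them.

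The design compares the ages. With the filter on low counts only Spink5 of the 10 genes was tested between old and young animals and it was not called, and without the filter 7 of the 10 were called higher in old animals, calls that rest on 3 old wells, as given below. Casp14 had 172 CPM in P758, 155 in P722 and 85.0 in P662, against 22.6 in P60 and 0 in P59 and P57 (137 ± 46.0 and 7.55 ± 13.1 CPM, SD, n = 3 each). Hal had 328, 77.6 and 99.2 CPM in the same old animals, against 26.8 in P60 and 0 in P59 and P57. Every old animal lay above every young one for these 2 of the 10 genes, as for 2.20% of all genes with a count, and without the 2 wells again for these 2, beside 2.18% of all genes. The values of P722 rest on 2 counts of Casp14 and 1 of Hal, and the zeros of P57 and P59 allow up to 705 and 298 CPM. In the deep animals without the 2 wells, Hal had 29.0 CPM (18.8 to 42.8) in P758 against 26.8 (20.7 to 34.3) in P60, a gap well within the intervals. Casp14 had 44.1 (31.2 to 60.5) against 22.6 (17.0 to 29.6), intervals that do not overlap but hold counting error only, in 1 animal per age. For the other 8 genes the ages overlapped, as for Asprv1 with 93.7, 77.6 and 56.7 CPM in P758, P722 and P662 against 80.8 in P59 from 1 count, 23.5 in P60 and 0 in P57. Mean Spink5 was 439 ± 255 CPM among the old animals and 238 ± 44.5 CPM among the young ones. Nothing in the labels says more on how far the animals of an age were handled apart, so the spread between them may be partly technical.

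**Figure D4:**
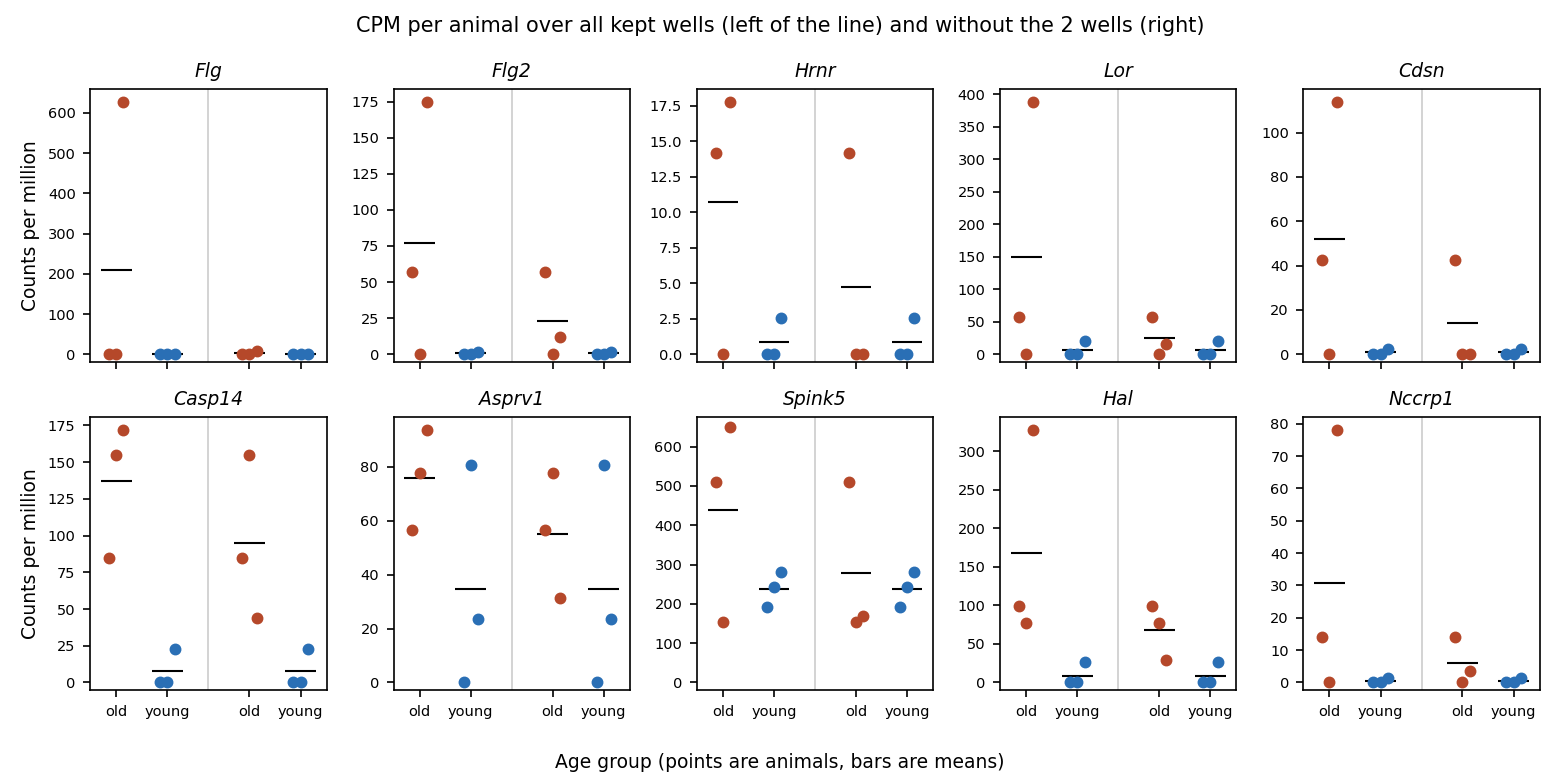
CPM of each gene per animal (points, old in red and young in blue, n = 3 each, bars at the means), over all kept wells on the left of each panel's line and without the 2 wells of P758 on the right; the y axes differ between panels. The mean of old animals for Flg falls from 209 to 2.32 CPM, while for Casp14 (137 to 94.8 CPM) and Hal (168 to 68.6 CPM) the old points stay above the young ones, for Hal by 29.0 against 26.8 CPM at the nearest.

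With the filter on low counts the edgeR test called 0 genes (0%). Before adjustment 25 genes had a p under 0.05 in edgeR and 6 in DESeq2, which also called 0. Spink5, the only one of the 10 to be tested, had a log2 difference of old over young of 1.00 (SE 0.414, adjusted p = 0.998), and -0.00 without the 2 wells. Without the filter 111 of 15873 genes (0.699%) were called, 75 of them (0.473%) higher in old animals, with 7 of the 10 among these: Flg at 7.57 (SE 1.24, adjusted p = 1.47e-06), Flg2 at 5.98 (SE 0.976, adjusted p = 1e-06), Nccrp1 at 5.36 (SE 0.808), Cdsn at 4.98 (SE 0.832), Lor at 3.48 (SE 0.848), Hal at 3.02 (SE 0.813) and Hrnr at 2.65 (SE 0.513). These calls rest on single wells. The wells left out next are all old and were picked for their share of these counts, so leaving them out lowers the old values by construction; the values say which wells the calls rest on and are no test of the ages. Without the 2 wells 84 of 15864 genes (0.530%) were called, 54 of them (0.340%) higher, and 1 of the 10, Flg2 at 2.96 (SE 0.579, adjusted p = 0.00681). With the old 7 well left out too, 83 of 15863 (0.523%) were called, 53 of them (0.334%) higher, and 0 of the 10. Flg2 then had 2.47 (SE 0.505, adjusted p = 0.127) and Casp14 1.28 (SE 0.608, adjusted p = 0.67). The median log2 difference over the 10 was 3.25 with all wells and 0.58 without the 2, beside -0.01 over all genes in both. Without the 2 wells it was also 0.61 over the early suprabasal list and 0.64 over the late differentiation list, both described below. Suprabasal wells made up 26.6% of wells in P662, 18.4% in P722 and 25.0% in P758, against 23.1% in P57, 18.8% in P59 and 15.0% in P60. How far this mix bears on the medians was not tested.

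Within suprabasal wells alone, the calls of the 10 between the ages rested on the same 2 old wells. The filtered test called 1 of 191 genes (0.524%), none of the 10, and Spink5 had a log2 difference of 0.48 (SE 0.581, adjusted p = 0.987). Without the filter 44 of 12412 genes (0.354%) were called, 32 of them (0.258%) higher in old animals, with Cdsn, Flg, Flg2, Hrnr and Nccrp1 among these. Without the 2 wells 23 of 12370 genes (0.186%) were called, 13 of them (0.105%) higher, and none of the 9 of the 10 that could be tested. In P758 without the 2 wells, suprabasal Spink5 was 457 CPM (382 to 543) against 1040 CPM (952 to 1130) in P60, Hal 70.9 against 112, Casp14 106 against 70.1, Asprv1 49.6 against 72.1 and Lor 28.4 against 36.1 CPM. The intervals of these pairs overlapped except for Spink5, whose P662 value of 680 CPM (431 to 1020) lay between.

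Other genes of late differentiation were counted from lists chosen with earlier results of these data known, in the suprabasal against basal test without the filter and without the 2 wells. Of 51 late differentiation genes 27 were tested, with 12 called higher and 2 lower. Among the higher ones were the keratin Krt77 (log2 6.35, SE 0.289), the calmodulin-like Calm4 (4.88, SE 0.268), desmocollin Dsc1 (3.58, SE 0.257), and Ivl, which codes for involucrin (1.58, SE 0.532). The transglutaminases Tgm3 and Tgm5 were lower at -2.02 (SE 0.691) and -1.21 (SE 0.382), and Tgm1, which cross-links the envelope, had 3.32 (adjusted p = 0.188), with 28 of its 36 counts in the 2 wells. Of the 51, 22 had a count of 0 in all wells, 20 of them of the Lce and Sprr2 families of small envelope proteins. How reads matching several genes were counted is not known, so these zeros do not show that the genes were not translated. Of 19 genes of barrier lipid synthesis 10 of 17 tested were higher, such as Elovl4 (5.65, SE 0.291) and Abca12 (3.59, SE 0.238), and of 13 transcription factors of late differentiation 8 were higher, such as Zfp750 (3.73, SE 0.239) and Grhl3 (3.54, SE 0.276). Of 26 envelope proteases and inhibitors 8 of 19 tested were higher, such as the kallikreins Klk5 (3.53, SE 0.510) and Klk7 (1.97, SE 0.487), targets of LEKTI, and 2 lower, Ctsl and Klk10. All 12 genes of the early suprabasal list were higher. Of all genes tested 5.59% were called higher.

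The genes most like the 10 were those with the highest ratio of CPM between wells with 2 or more of the 10 and wells with none, taking the lower of the ratios in P758 (35 and 511 wells) and P60 (44 and 777 wells), as a description. They were, in order, Cldn4, Gsdma, Dsc1, Mboat2, Krt78, Bpifc, Sbsn, Skint5, Psapl1 and Krt77. The tight junction gene Cldn4 had 219 against 1.78 CPM in P758 and 111 against 0.672 CPM in P60, the gasdermin Gsdma 262 against 5.35 and 117 against 2.02 CPM, and the suprabasin gene Sbsn 6120 against 248 and 5370 against 161 CPM. With 3 or more of the 10 as the rule, 8 of these genes stayed among the first 10. Leaving out the 2 wells, 5 did, and Cldn4, Gsdma, Dsc1, Mboat2 and Psapl1 were not among them. Wells with 2 or more of the genes were deeper (median 2930.5 counts) than wells with none (778).

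On the plate of the nuclease test 30 of 128007 counts fell on the 10 genes, in 22 of 230 wells (9.57%), with 14 counts of Spink5, 5 each of Lor and Hal and 0 of Flg. On the plate without Sca-1 they took 12 of 17377 counts in 3 of 52 wells, with 6 counts of Spink5, 5 of Cdsn and 1 of Hal and 0 of the other 7, which allows up to 212 CPM for each. Cdsn reached 288 CPM (93.4 to 671) there, 4 of its 5 counts in 1 well. The ages on that plate were not separated here.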

How the data were processed

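Ribosome footprints were sequenced from single sorted cells on 12 plates, 2220 wells in all. The authors deposited a table of raw counts per gene and well for each plate. Per the submitters' processing notes, which give no versions for fastp, Bowtie2, STAR, UMI-tools and featureCounts, the build was GRCm38.p6. Not given in the sources used here are the settings, such as whether reads were collapsed by molecular identifier and how reads matching several genes were counted. Shared reads between Flg, Flg2 and Hrnr, which hold repeats, could therefore be split or lost.

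Groups came from the labels, and plates that share age and postnatal day count as 1 animal. Wells with at least 100 counts on the 10 ungated plates were kept and summed per animal, or per animal and keratin class with at least 3 wells. edgeR 4.0.16 (TMM, filterByExpr, robust quasi-likelihood fit, Benjamini-Hochberg adjustment over all genes tested, calls at 0.05) in R 4.3.3 compared the ages over all wells, the keratin classes with the animal as a block, and the ages in suprabasal wells. DESeq2 1.42.0, limma 3.58.1, no filter and other settings were alternatives. Thinning drew 500 counts per well without replacement. Python 3.11.15 with scipy 1.17.1 gave the exact intervals. The scripts were tested on simulated data. Doublets were not called, and each plate's wells were used as deposited.

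The 10 genes and all gene lists were chosen with earlier results of these data known. Genes named outside the 10 are the 10 with the highest ratio between wells with 2 or more of the genes and wells with none (the lower of P758 and P60, with 1 count added, over genes with at least 20 counts in the former wells of each), and examples of the lists. The 2 wells, the old 7 and young 9 wells and the follicle wells were singled out after their values were seen.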

Additional observations from a re-analysis of the deposited data

Results flagged for a closer look

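On plate young 9, Flg2 reached 4.68 CPM, from 2 counts in 2 wells, and stood apart from the other 4 young plates, which had 0 to 1.07 CPM. The zeros were those of the shallow plates young 10 and young 8, which allow up to 705 and 298 CPM, and the interval of young 9 (0.567 to 16.9 CPM) overlaps those of young 1 (0.0248 to 5.47) and young 3 (0.027 to 5.94). The gap was 0.771 of the range of the 5 plates. Among the 20 groups of plates tested, of which chance sets apart about 1 in 20, no other value did so. A value of 2 counts has little precision.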

How the results depend on the processing

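No paired analysis was possible because the 2 ages share no replicate numbers in the labels. The settings without the 2 or 3 wells, without the young 9 well or on 5 plates were chosen after seeing the data. For the ages over all wells, 45 genes and 6 of the 10 were called at a mean of at least 20 CPM, 111 and 7 with no filter, 84 and 1 with no filter and without the 2 wells, and 83 and 0 without the 3 wells. The 6 at 20 CPM were Casp14, Cdsn, Flg, Flg2, Hal and Lor, all higher in old animals. That setting was not run without the 2 or 3 wells. For suprabasal against basal wells, the counts were 1699 and 8 at 20 CPM, 1966 and 9 with no filter, 1931 and 4 with no filter and without the 2 wells, 1488 and 4 in wells with at least 500 counts, and 456 genes with sums per plate. On the 5 plates of P758 and P60, which are technical replicates of 2 animals, they were 1663 and 1, without the 2 wells 1631 and 1, with no filter 2546 and 9, with neither 2506 and 5, and without the young 9 well besides 2493 and 4. For the ages in suprabasal wells they were 19 and 4 at 20 CPM, 44 and 5 with no filter, 23 and 0 without the 2 wells besides, and 0 genes with DESeq2. In wells with at least 500 counts they were 49 and 3, from 3 animals of which only P60 was young, so the young age had no spread of its own and was assumed to vary like the old animals. Leaving out 1 animal at a time gave 26 to 195 genes for the keratin classes and 0 to 14 for the ages in suprabasal wells, where no fit could be made without P758, P662 or P60. The share of wells with any of the genes was 23.3% in wells with at least 500 counts, 9.78% after thinning, 5.35% when 2 counts were required, 11.4% without Spink5 and 15.9% to 19.1% leaving out 1 animal. The share with 2 or more was 6.4% in wells with at least 500 counts, 0.903% after thinning, 1.36% when 2 counts were required and 4.46% to 5.19% leaving out 1 animal. Without the 2 wells 5 of the 10 most alike genes were kept. Turned signs were seen between the ages with no filter and without the 2 wells for Hrnr (-1.13), and without the 3 wells for Hrnr (-3.62), Lor (-0.34) and Cdsn (-0.27), and for Spink5 with the filter (-0.0). Between the classes without the 2 wells Hrnr turned to -1.64, and on the 5 plates Hrnr to -1.87 and Cdsn to -0.91, with -1.86 and -0.91 without the young 9 well too. Between the ages in suprabasal wells without the 2 wells Lor turned to -0.58, Asprv1 to -0.37, Spink5 to -0.37 and Hal to -0.29. The cause was not tested. Of the other values of single genes, 85 kept sign and call, 27 lost a call and 3 gained one. Depth limits the ages, since a single count was worth 77.6, 80.8 and 191 CPM in P722, P59 and P57.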
